A study of Homo sapiens with 3 samples.

Results

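Input DNA is the fragmented chromatin of the cells that is set aside before any antibody is added, and it is the background against which a chromatin immunoprecipitation (ChIP) is read. The deposited data held 1 list of peaks called in input DNA alone, and all 286 regions of that list are described here, out of 338574 peaks in the 5 lists of the series. The cells were HK-2, a commonly used human line from the renal proximal tubule, with a Tet-On construct for an HA-tagged PRCC-TFE3 fusion that doxycycline had switched on (0.2 µg/mL over 24 h). All 3 libraries came from cells with that construct and that treatment, namely HA-PRCC-TFE3 ChIP replicate 1, HA-PRCC-TFE3 ChIP replicate 2 and input DNA. The fusion carries the DNA-binding part of the transcription factor TFE3 and drives a subtype of renal cell carcinoma. Cells without doxycycline and a mock ChIP were not analysed here, and the number of cell clones behind the line is not given in the sources used here. Input DNA was sequenced as 1 library, so its values have no replicate and no test was made between libraries.

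Peaks in input DNA do not mark a bound protein. Repeated DNA such as the alpha satellite arrays of centromeres, the simple satellites beside them, the ribosomal RNA genes and subtelomeric repeats is present in more copies in a cell than in a reference assembly, and reads from several copies can then fall on the same place. Mitochondrial DNA, which is present in many copies in each cell, behaves in a similar way. Such places are often masked in ChIP-seq because an antibody-independent excess there can pass for enrichment.

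The 286 input peaks held 12130 tags (aligned reads), or 0.0559% of the 21695250 tags estimated for that library (95% Wilson interval, 0.0549% to 0.0569%). Each peak was 306 bp wide, and all of them together covered 87.5 kb. Their signal was given as tags per 10000000 tags of the library (tags per 10M), and it ranged from 5.99 to 214.3 with a median of 11.5. In tags this was 13 to 465 with a median of 25, whereas an even spread over the assembly would place 2.15 tags in a window of that width. The signal was uneven among the peaks, and the 10 highest held 20.4% of all tags in the list. Intervals given here cover counting error only. The ChIP libraries held an estimated 12235754 tags in replicate 1 and 7418533 tags in replicate 2, fewer than input DNA.

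To determine where the input peaks lay, each chromosome was marked by its longest stretch without a ChIP peak of either replicate, called the gap below. In 19 chromosomes the gap was internal, and in chromosomes 13, 14, 15, 21 and 22 it ran from the first base. Gaps were at least 3.05 Mb long. They stand in for the centromere and for unsequenced or unmappable DNA, because centromere positions in hg19 were not used here. The gap is not a centromere on chromosome Y, where it ran from 27.55 to 59.1 Mb. The 25 input peaks of chromosome Y farther than 5 Mb from it started at 9.92 to 13.87 Mb. They are therefore not known to lie away from the centromere.

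Input peaks gathered at these gaps. Of the 286, 142 (49.7%; 95% Wilson interval, 43.9% to 55.4%) lay inside a gap or within 5 Mb of it, compared with 14.0% of 1 kb tiles of the same chromosomes. A total of 53 (18.5%) lay inside a gap, compared with 7.22% of tiles. Among the 232 nuclear peaks outside the gaps, 89 (38.4%; 32.3% to 44.8%) were within 5 Mb of one, compared with 7.32% of tiles outside gaps. Gaps hold no narrowPeak peak by construction, so ChIP peaks can be set only beside tiles and input peaks outside gaps. On these chromosomes 6.0% of replicate 1 and 5.95% of replicate 2 narrowPeak peaks lay within 5 Mb of a gap. Outside gaps this was 7.32% of tiles and 38.4% of input peaks. The 142 input peaks inside a gap or within 5 Mb of it held 59.1% of the tags of the list. Their median signal was 12 tags per 10M, close to the 11.5 of the 132 peaks elsewhere, but their highest value was 214.3 against 62.7. In the plot of signal against distance to the gap, the 9 strongest input peaks are thus found to the left of the line at 5 Mb.

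**Figure D1:**
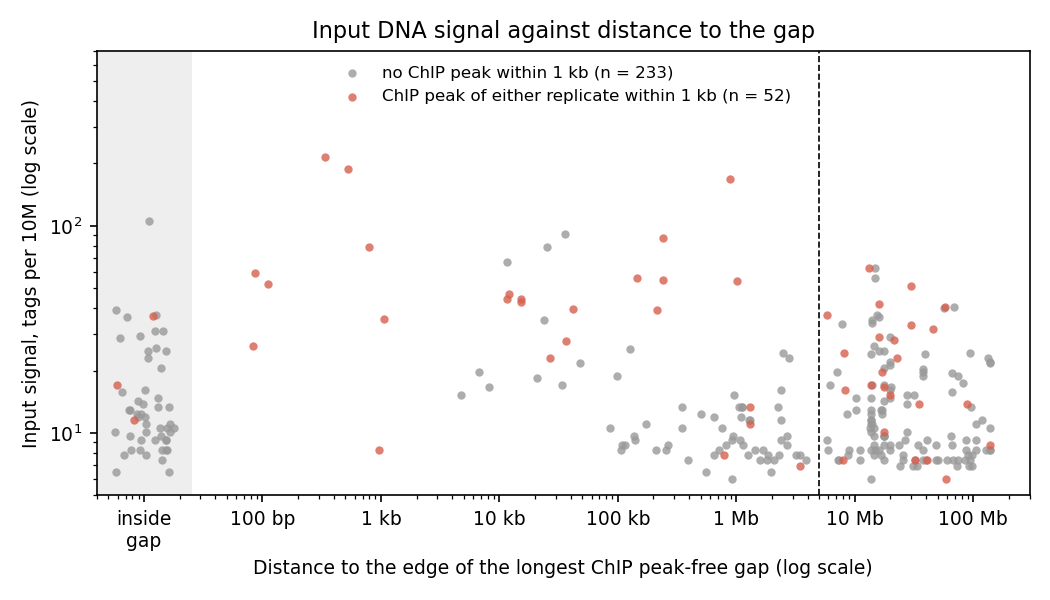
Input signal in tags per 10M (log scale) of 285 nuclear input peaks against the distance to the edge of the longest ChIP peak-free gap of their chromosome (log scale, with peaks inside a gap in the shaded strip, spread sideways for legibility). The dashed line marks 5 Mb, and colour marks whether a ChIP peak of either replicate lay within 1 kb; the gap edges are ChIP peaks themselves, so points close to an edge are next to one by construction.

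Subtelomeric places were few. The left end of a chromosome was taken as its first base and the right end as the outermost peak of any list. Within 500 kb of an end lay 12 input peaks (4.20%; 95% Wilson interval, 2.42% to 7.19%), compared with 0.776% of tiles, 0.864% of replicate 1 and 0.939% of replicate 2 narrowPeak peaks. One of them was also inside the gap of chromosome Y. Of the other 11, 7 were on chromosome 4, and 5 of these stood between chr4:190797612 and chr4:190936214. The strongest were neighbours on chromosome 18, chr18:108082-108387 with 62.7 tags per 10M and chr18:109170-109475 with 56.2, and the nearest narrowPeak peak was 49835 bp from the former and 48747 bp from the latter. Of these 11 peaks, 1 had a replicate 1 narrowPeak peak within 1 kb and 0 had a replicate 2 peak, compared with 7.9% and 5.98% of all windows of the same width, so that 11 peaks are too few to tell these counts from the background.

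The number of input peaks did not follow chromosome length. Chromosome Y carried 30 of them, chromosome 2 carried 25, chromosome 1 carried 24 and chromosome 17 carried 22. In contrast, chromosome 15 carried 1, and chromosomes 13 and 22 carried 2 each. Per 100 Mb this was 50.5 peaks on chromosome Y, 27.1 on chromosome 17, 27.0 on chromosome 20 and 0.975 on chromosome 15. The share next to a gap also differed between chromosomes. On chromosome 16 it was 15 of 16 peaks, on chromosome 11 it was 8 of 9 and on chromosome 10 it was 12 of 15, while chromosomes 3, 14 and 18 had 0 such peaks.

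**Figure D2:**
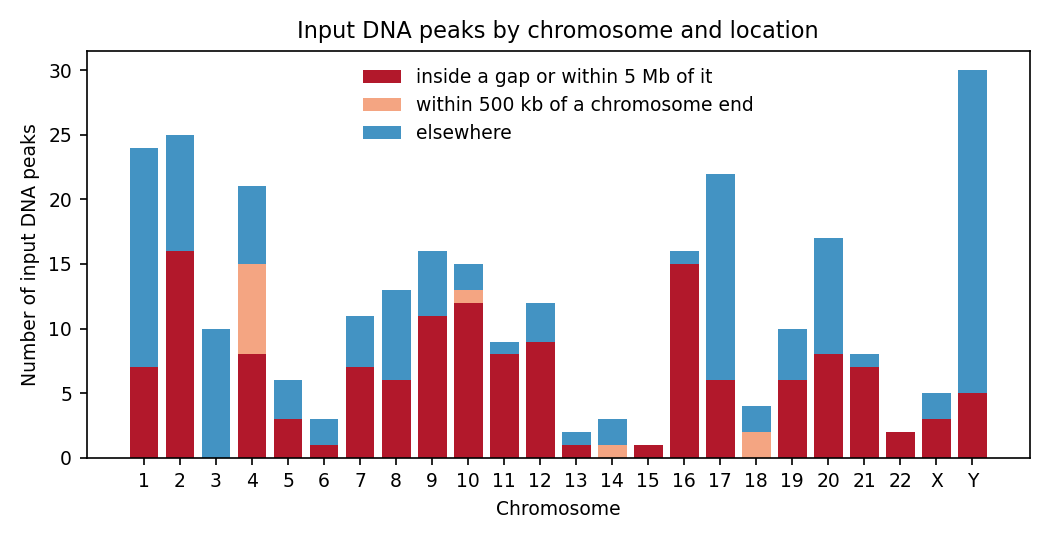
Number of input DNA peaks on each nuclear chromosome, stacked by location: inside the longest ChIP peak-free gap or within 5 Mb of it, within 500 kb of a chromosome end, or elsewhere. Chromosome Y has 30 peaks and chromosome 15 has 1. The gap of chromosome Y is not its centromere, so its 25 peaks elsewhere are not placed relative to the centromere.

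Input peaks also lay close to each other. Of the 286, 112 had another input peak within 10 kb and 167 had one within 100 kb. When peaks within 100 kb were joined, 171 groups resulted, of which 119 were single peaks and 7 held 5 or more. Neighbouring peaks are therefore not independent sites, and the intervals on shares of peaks are too narrow to that extent. The 5 largest groups are described in turn.

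On chromosome 2, 10 peaks lay in 49.5 kb from chr2:92269362 to chr2:92318872, at the edge of the gap, which here is itself a replicate 2 peak. Their signals ranged from 16.6 to 47.0 tags per 10M, with a median of 22.35. Replicate 2 had a narrowPeak peak within 1 kb of 6 of them, and replicate 1 had one within 1 kb of 0. The BED lists differed from this, and at chr2:92275794-92276099 a BED peak of each replicate overlapped, with 68.7 tags per 10M in replicate 1 and 102.4 in replicate 2.

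On chromosome Y, 10 peaks lay between chr Y positions 9919300 and 10043791 and 9 lay between positions 13800923 and 13869620. Their median signals were 9.89 and 11.5 tags per 10M. A narrowPeak peak of both replicates lay within 1 kb of 2 peaks of the first group, and 0 peaks of the second group had one.

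On chromosome 17, 8 peaks lay in 53.8 kb from chr17:45212973 to chr17:45266738, far from the gap. The median signal was 15.65 tags per 10M. Only the last of them, chr17:45266433-45266738, had ChIP peaks within 1 kb, while the nearest narrowPeak peak to any of the other 7 was 11981 bp away.

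The fifth group comprised 7 peaks in 158 kb from chr16:33865158 to chr16:34022851. Here 1 peak, chr16:33963095-33963400, was both the strongest, with 53.9 tags per 10M, and the only one with a ChIP peak within 1 kb. The group of 6 peaks around the other edge of the same gap, from chr16:46386412 to chr16:46500210, held more tags than any other group, 779 in all. In that group 0 peaks had a narrowPeak peak of either replicate within 1 kb, which holds by construction for the 1 inside the gap.

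The 10 strongest input peaks showed 2 kinds of ChIP neighbourhood. The first was chr6:58778358-58778663, which lay 338 bp outside the gap of chromosome 6. This peak had 465 input tags, or 214.3 per 10M (95% Wilson interval, 196 to 235). Replicate 2 overlapped it with a fold enrichment of 1.60, as given by the authors' peak caller, and the nearest replicate 1 peak was 392 kb away. The next were chr1:121484660-121484965, with 187.6 tags per 10M (170 to 207), and chr7:61969096-61969401, with 168.2 (152 to 186). Both were overlapped by ChIP peaks, with fold enrichments of 1.85 and 3.02 at the first and of 1.75 and 2.66 at the second, in replicates 1 and 2. All 4 folds were below the median of the full lists, 7.49 in replicate 1 and 7.32 in replicate 2. Input DNA is the background of the fold, so high input lowers it by construction. The peaks on chromosomes 6 and 1 lay within 1 kb of a gap edge, which is a ChIP peak by construction.

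Peaks chr21:9827137-9827442, with 87.1 tags per 10M, and chr10:42385067-42385372, with 79.3, were of the same kind. Their fold enrichments were 2.20 and 2.56 on chromosome 21 and 1.65 and 2.55 on chromosome 10, where the gap edge was 794 bp away. At chr1:156186266-156186571, the only one of the 10 far from a gap, the input signal was 62.7, equal to that of chr18:108082-108387, and the folds were 2.32 and 2.52. The remaining 4 formed the other kind. All of them were on chromosome 16 between positions 46386412 and 46427741, with signals of 105.6, 66.8, 78.8 and 90.8 tags per 10M in order of position. They had no narrowPeak peak of either replicate within 1 kb, the closest being 5176 bp away. The first by position, at 46386412, lay inside the gap, where a ChIP peak is absent by construction, and this closest peak is the gap edge. A strong input signal was accompanied by a called ChIP peak at 6 of the 10 places. The 10 were ranked by input signal alone, so this count does not rest on the gaps. Which of these places lie at or inside a gap edge does depend on where ChIP peaks were called.

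The next question was how often a ChIP peak lay within 1 kb of an input peak. This was the case for 39 of 286 input peaks in replicate 1 (13.6%; 95% Wilson interval, 10.1% to 18.1%), compared with 7.9% of all windows of the same width and 9.63% of 1 kb tiles. In replicate 2 it was 49 of 286 (17.1%; 13.2% to 21.9%), compared with 5.98% of windows and 7.32% of tiles. With either replicate it was 53 (18.5%; 14.5% to 23.4%), compared with 8.48% of windows and 10.3% of tiles. With both replicates it was 35 (12.2%; 8.93% to 16.5%), compared with 5.39% of windows and 6.63% of tiles. The other 233 input peaks had no ChIP peak of either narrowPeak list within that distance. Of the 53, 43 were overlapped and 10 were approached without overlap. When the BED lists were added, 85 input peaks had a ChIP peak of some list within 1 kb, compared with 8.69% of windows for the combined lists, and 201 (70.3%) had none. In the narrowPeak lists the last one counted was 975 bp away and the first one not counted was 1007 bp away.

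The highest shares were those of the strongest input peaks. When the 286 peaks were divided into 4 bins of nearly equal size by signal, replicate 1 had a peak within 1 kb of 31.9% of the highest bin (95% Wilson interval, 22.3% to 43.4%) and replicate 2 of 44.4% (33.5% to 55.9%). In the second bin both shares were 11.3% (5.82% to 20.7%). In the third bin they were 2.78% (0.765% to 9.57%) and 4.17% (1.43% to 11.5%), and in the lowest bin both were 8.45% (3.93% to 17.2%). The intervals of the lower 3 bins included the shares of all windows, 7.9% and 5.98%. Accordingly, the 53 input peaks with a ChIP peak nearby had a median signal of 28.1 tags per 10M, and the other 233 had a median of 10.6. A narrowPeak peak of either replicate was within 1 kb of 14 of the 20 strongest input peaks and of 28 of the 50 strongest.

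**Figure D3:**
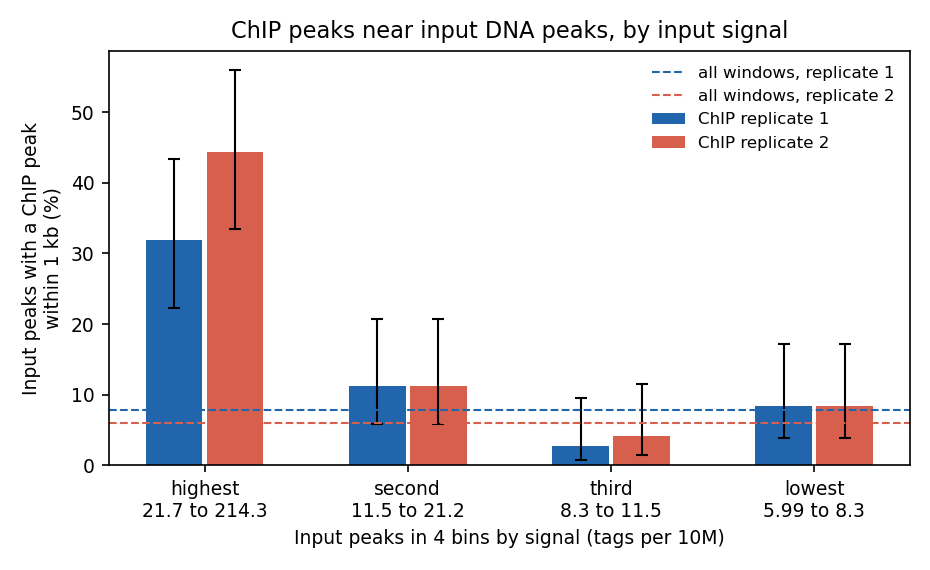
Share of input peaks with a narrowPeak peak within 1 kb, in percent, for each of 4 bins of the 286 input peaks by input signal (range in tags per 10M under each pair of bars) and for each ChIP replicate. Error bars are 95% Wilson intervals and dashed lines give the share of all windows of the same width, 7.9% and 5.98%; only the bars of the highest bin stand clear of the lines.

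The share was then read by location. Outside the gaps and within 5 Mb of them, 25 of 89 input peaks (28.1%) had a ChIP peak of either replicate within 1 kb, compared with 7.41% of such windows. Leaving out the 7 within 1 kb of a gap edge, it was 18 of 82. Farther than 5 Mb from a gap it was 24 of 143 (16.8%; 95% Wilson interval, 11.5% to 23.8%), compared with 9.28% of such windows. These 143 include 25 on chromosome Y, where the gap is not the centromere, and without them it was 22 of 118 (18.6%). Inside the gaps it was 3 of 53, which is low by construction, since a gap is a stretch without ChIP peaks.

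The replicates differed in how they met the input peaks. Replicate 1 had the longer narrowPeak list and covered 2.51% of windows alone, whereas replicate 2 covered 0.584% alone. At the input peaks the order was turned in the narrowPeak lists, with 4 accompanied by replicate 1 alone and 14 by replicate 2 alone. Of these 14, 11 were next to a gap, including the 6 of the group on chromosome 2. These are counts of input peaks, and on chromosomes 2 and 9 neighbouring input peaks shared a replicate 2 peak. Some of the 14 were overlapped by a replicate 1 BED peak, at chr2:92275794-92276099, chr2:92317603-92317908 and chr9:66833042-66833347. At chr7:61079140-61079445 the nearest replicate 1 narrowPeak peak was 1013 bp away, just past the limit. Of the 4, chr12:20704273-20704578 was overlapped by a replicate 2 BED peak. The narrowPeak fold enrichments had the same direction as the narrowPeak counts. Among the 34 nuclear input peaks that had peaks of both replicates within 1 kb, the fold was higher in replicate 2 at 30 (88.2%), with a median ratio of replicate 2 to replicate 1 of 1.26 and a range of 0.759 to 2.05. Over the full lists, 28.2% of the 71285 replicate 1 peaks that overlapped a replicate 2 peak had the higher fold in replicate 2. Both ChIP libraries were compared with this same input library, and they differed in depth. The part of depth in this difference was not tested.

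Most ChIP peaks beside input peaks had a fold enrichment below the typical value of their list. The fold sets ChIP against the same input library, and these places were chosen for high input. Low folds therefore follow in part from the choice of places. In replicate 1 the 39 values had a median fold enrichment of 2.32, and 8 of them (20.5%) reached the median of the full list. In replicate 2 the 49 values had a median of 2.52, and 9 (18.4%) reached the median of the full list. Values were taken per input peak, so a ChIP peak near neighbouring input peaks was counted at each. This occurred on chromosomes 2, 9 and Y in replicate 2 and on chromosome Y in replicate 1. Next to gaps the medians were 1.86 and 2.25, and 0 of 17 and 1 of 27 reached the list median. Elsewhere the medians were 2.61 and 3.15, and 7 of 20 and 7 of 21 reached it. Their q values were closer to those of the full lists. At q below 1e-05 there were 31 of the 39 in replicate 1, compared with 82.4% of the full list, and 42 of the 49 in replicate 2, compared with 78.2%.

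**Figure D4:**
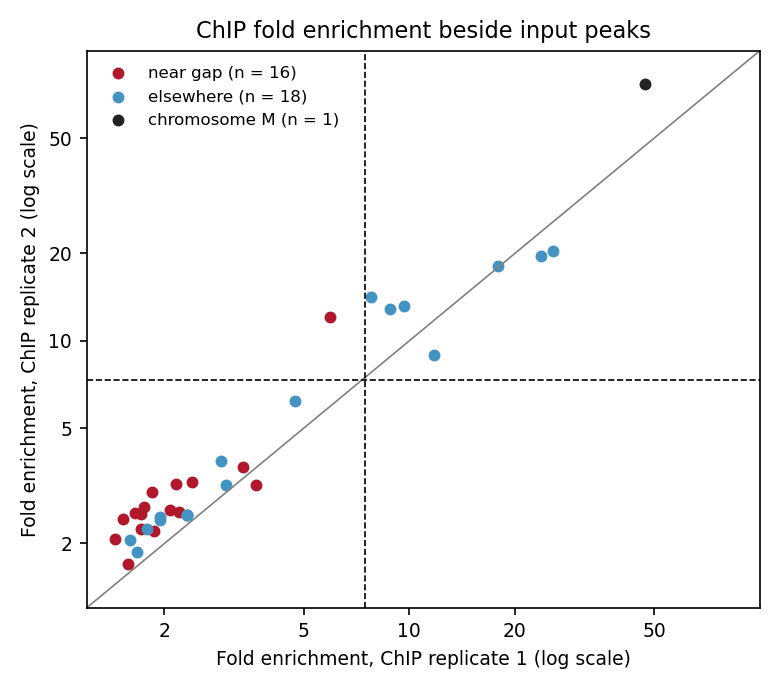
Fold enrichment of the nearest narrowPeak peak within 1 kb in ChIP replicate 1 (x axis, log scale) and replicate 2 (y axis, log scale) for the 35 input peaks that had one in both, coloured by location. The solid line marks equal values and the dashed lines the medians of the full lists, 7.49 and 7.32; 30 of the 34 nuclear points lie above the solid line.

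The 5 nuclear input peaks with the highest fold in both replicates were all more than 5 Mb from a gap, and their input signals ranged from 7.38 to 41.9 tags per 10M. At chr3:134031763-134032068 the input signal was 7.38 tags per 10M, and ChIP peaks at 3 and 135 bp had folds of 25.7 and 20.4. At chr20:61847812-61848117 the input signal was also 7.38, and the overlapping ChIP peaks had folds of 23.8 and 19.5. Both were among the weakest input peaks, with 16 tags each, next to ChIP peaks well above the typical strength. At chr17:45266433-45266738 the input signal was 15.2 and the folds were 17.9 and 18.1. At chr17:41400487-41400792 the input signal was 41.9 and the folds were 9.64 and 13.1. At chr12:127650802-127651107 the input signal was 13.8 and the folds were 11.8 and 8.95. These 5 places were chosen for high folds, so that their folds exceed the list medians follows from the choice. Their ChIP peaks overlapped an excess in input DNA or lay within 135 bp of one.

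For a direct comparison of ChIP and input tags in the same windows, BED peaks that overlapped input peaks were examined. The replicate 1 BED list overlapped 29 input peaks, the replicate 2 list overlapped 39 and both overlapped 24. At chr8:43093126-43093431, where the input peak had 44.3 tags per 10M, the replicate 1 window contained 92.4 ChIP and 18.4 input tags per 10M. The replicate 2 window contained 134.8 and 19.8. At chr17:41465926-41466231, with an input peak of 29.0, the windows contained 121.8 ChIP tags against 17.1 input tags in replicate 1 and 151.0 against 17.5 in replicate 2. ChIP tags exceeded input tags at both places in both replicates, which holds at any BED peak because of the lower fold limit of these lists, given below. At chr17:45266433-45266738 the windows held 69.5 against 3.69 and 86.3 against 3.23.

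Across the 24 places the fold over input in the deposited lists had a median of 7.0 in replicate 1 and 8.02 in replicate 2. The medians of the full BED lists were 39.0 and 52.6. Input is the denominator of this fold and the places were chosen for high input, so lower medians follow in part from that choice. No BED peak had a fold under 4.05 in replicate 1 or 4.02 in replicate 2, so all 24 had to exceed this value. ChIP tags had medians of 36.4 and 45.8 tags per 10M at these places, compared with 13.9 and 17.5 in the full BED lists. A place with high input needs many ChIP tags to pass the fold limit, so this comparison is not independent of it. The BED windows were 208 or 212 bp wide, narrower than the input peaks, and their input tags were fewer than those of the input peak at all of them.

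**Figure D5:**
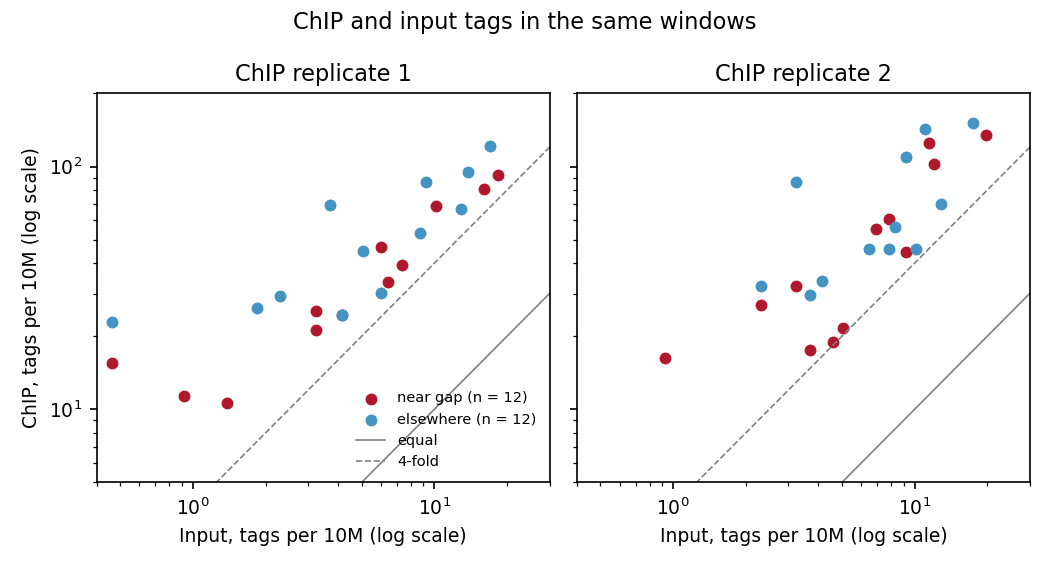
ChIP tags against input tags, both in tags per 10M on log scales, in the BED windows of replicate 1 and of replicate 2 at the 24 input peaks that a BED peak of both replicates overlapped, coloured by location. The solid line marks equal values and the dashed line a ratio of 4; all points lie above the dashed line because the lists contain no lower ratio.

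The input list was also read from the ChIP side. In the replicate 1 BED list, 16 peaks contained at least 13 input tags, which is the lowest tag number in the input list, and 12 of them overlapped an input peak. In the replicate 2 list there were 33 such peaks, of which 21 overlapped an input peak. Input tags under a ChIP BED peak reached at most 40 for replicate 1 and 87 for replicate 2, whereas the input list reached 465. These values are not directly comparable, since the BED windows were 208 or 212 bp wide and the input peaks 306 bp. The BED lists also have a lower fold limit, so a place with high input is listed only with many ChIP tags. The difference in width applies to the limit of 13 tags as well. Of the 10 strongest input peaks, only the one on chromosome 10 was overlapped by a BED peak, that of replicate 2, with 226.4 ChIP and 40.1 input tags per 10M.

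Chromosome M had a single input peak, chrM:576-881, with 13.8 tags per 10M (95% Wilson interval, 9.69 to 19.7). Its density was 4.19 times that of its surroundings. In both narrowPeak lists chromosome M was covered from end to end by 1 peak of 16571 bp, with a fold enrichment of 47.0 in replicate 1 and 77.0 in replicate 2, so its overlap with the input peak carries no information on position. The BED list of either replicate had no peak on chromosome M.

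A further measure in the input list was the ratio of the tag density of a peak to that of its surroundings. It ranged from 4.01 to 1837.42 with a median of 6.51, and the highest values, 1837.42 at chr9:44993069-44993374 and 285.12 at chr5:49405708-49406013, belonged to peaks of 13.4 and 12.4 tags per 10M next to or inside gaps, rather than to strong ones. Away from gaps and ends, 15 peaks had a ratio of at least 20, a limit that was chosen after the values were seen. These 15 include chrY:13680824-13681129 and chrY:13851509-13851814, which are not known to lie away from the centromere and had no ChIP peak nearby. The median signal of the 15 was 33.2 tags per 10M, compared with 10.1 for the other 117 peaks elsewhere. Peak density is the numerator of the ratio, so a higher signal follows in part from the choice. Among the 15 were chr1:91852892-91853197 with 51.2, chr14:88237604-88237909 with 40.6, chr6:119558421-119558726 with 40.6 and chrX:108297545-108297850 with 31.8 tags per 10M. Of the 15, 8 (53.3%) had a narrowPeak peak of either replicate within 1 kb, with folds from 1.59 to 3.15. This was the case for 15 of the other 117 (12.8%) and for 9.28% of windows farther than 5 Mb from a gap. All 8 were in the highest of the 4 signal bins, where the share with either replicate was 44.4%. The share of the 15 is therefore not separate from their signal. The BED list of either replicate overlapped 0 of the 15.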

How the data were processed

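ChIP and input DNA were taken from doxycycline-treated HK-2 cells after cross-linking and MNase digestion, with an anti-HA antibody for the ChIP. Per the submitters' processing notes the build was hg19, and all coordinates are in hg19, counted from 1. The tool that made the deposited BED lists is not given in the sources used here. Their columns were read by position because the headers were displaced. They hold a score and a signal in tags per 10000000 tags, as deposited by the authors. The deposited lists also give, from the authors' peak calling, a fold (ratio) over the surroundings or over input DNA, with a p-value. The deposited ChIP BED lists hold a count of ChIP tags per peak and input tags scaled to the ChIP depth, from which the input tags per peak were recovered, with 0.5 tags in the files standing for 0. The deposited narrowPeak lists, in the layout of MACS, which the authors ran within Strand NGS, hold fold enrichment and −log10 p and q values, each replicate being called separately.

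Distances were measured edge to edge with Python 3.11.15, numpy 2.4.6 and pandas 2.3.3, and intervals were Wilson intervals (scipy 1.17.1). Library totals were estimated from the whole-tag steps of the values, with a tolerance of 0.1 tags. Shares were set beside those of tiles of 1 kb or of the width of an input peak. Regions named were the 10 strongest input peaks, the 5 groups with most peaks, the peak on chromosome M and the 5 with the highest fold in both replicates. Further regions, including the subtelomeric peaks, those compared by tags and those with a local ratio of at least 20, were chosen after values were seen. Members and lists were chosen with earlier results of these data known. The steps were tested on simulated data. Genes, repeat classes and sequences in hg19 were not analysed here, so satellite DNA was not identified directly.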

Additional observations from a re-analysis of the deposited data

How the results depend on the processing

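Of 20 alternatives, 17 kept their count within 1.5 times the value reported. The other 3 moved it. Keeping only input peaks with at least 2 times the lowest signal left 142 of 286. A ChIP peak lay within 10 kb of 105 input peaks, compared with 53 within 1 kb, and within 1 kb in both replicates at 35. Without replicate 1 there were 139 input peaks next to a gap and without replicate 2 there were 142. With a ChIP peak within 1 kb there were 49 without replicate 1 and 39 without replicate 2. Restriction to chromosomes 1 to 22 and X for these 2 results, chosen after seeing the data, gave 137 and 50. No paired analysis was possible because no result comes from a test, and the label of input DNA carries no replicate number. With 1 input library, counts of 13 to 465 tags per peak limit the precision, and variation between input libraries could not be measured.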
